A study of Mus musculus with 10 samples.

Results

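Of the 26689 chromatin contacts that were called with H3K4me3 PLAC-seq in mouse microglia, 3294 joined a pair of 5 kb bins that both carried the mark, which was 12.3% of all contacts (95% Wilson interval 12 to 12.7%). These are called both-marked contacts. They were chosen by the authors' 2 marks of H3K4me3 in the list of contacts, 1 for each bin. The other 23395 contacts had the mark in 1 bin, and 0 had it in neither. Since the mark chose the contacts, that both bins carry H3K4me3 is how the set was made and not a finding.

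The libraries came from brain microglia of wild-type C57/Bl6 mice, sorted as CD45+ CD11b+ CX3CR1+ cells. Used here were 2 H3K4me3 ChIP-seq libraries and a list of contacts that the authors had called on 2 PLAC-seq libraries together. The 10 samples of the series also hold 2 input libraries, and 4 Hi-C libraries of which a pair came from mice without an enhancer of Sall1, and neither kind was analysed here, so no genotypes were compared. The labels give no ages and do not say whether replicates were separate animals, so the spread between the ChIP-seq libraries may be technical, and the contacts have no replicate error at all. The ChIP-seq libraries held 12.8 and 13.4 M tags and 27845 and 26574 peaks. The promoters of the microglia marker genes P2ry12, Tmem119, Cx3cr1, Csf1r, Sall1 and Olfml3 all carried H3K4me3 within 1 kb of a start site in both replicates. Of the marker genes of other cells on autosomes, 6 of 15 for neurons, 7 of 13 for astrocytes, 6 of 12 for oligodendrocytes, 3 of 12 for endothelial and mural cells, 2 of 11 for border macrophages and 2 of 17 for other leukocytes were also marked by this measure, so the mark alone does not separate these cells.

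H3K4me3, trimethylation of lysine 4 on histone H3, sits at the start sites of active genes and most strongly at promoters rich in CpG dinucleotides, which proteins that recruit the methyltransferases can bind. Weaker H3K4me3 is also found at some active enhancers, so a contact between marked bins may join promoters of different genes, or a promoter with a distal element. PLAC-seq ligates DNA ends that lie close together in the nucleus and then enriches, with an antibody, the ligation products that carry the mark.

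The DNA of promoters that met in both-marked contacts is shown first for 3 pairs that recur below: a pair with a high ratio of observed to expected read pairs and a tall peak at each end (Mertk with Tmem87b), the longest pair with at least 20 read pairs (Ibtk with Dop1a) and the pair with the most read pairs of all, in which 1 peak was low (Tesk1 with Cd72). Each line holds the 250 bases before the start site on the gene's own strand, read from the GRCm38.p6 genome at the RefSeq start, with CpG dinucleotides in capitals. The Mertk stretch (chr2:128698665-128698914, plus strand) held 7 CpGs and the Tmem87b stretch (chr2:128818053-128818302, plus strand) held 16. The Ibtk stretch (chr9:85749335-85749584, minus strand) held 13 and the Dop1a stretch (chr9:86466904-86467153, plus strand) held 22. The Tesk1 stretch (chr4:43442027-43442276, plus strand) held 18, and the Cd72 stretch (chr4:43454627-43454876, minus strand) held 6.
Mertk: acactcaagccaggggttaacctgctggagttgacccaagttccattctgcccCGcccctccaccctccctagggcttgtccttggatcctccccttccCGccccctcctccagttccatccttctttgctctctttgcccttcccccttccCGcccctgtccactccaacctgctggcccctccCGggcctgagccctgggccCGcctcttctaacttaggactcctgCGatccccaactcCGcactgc
Tmem87b: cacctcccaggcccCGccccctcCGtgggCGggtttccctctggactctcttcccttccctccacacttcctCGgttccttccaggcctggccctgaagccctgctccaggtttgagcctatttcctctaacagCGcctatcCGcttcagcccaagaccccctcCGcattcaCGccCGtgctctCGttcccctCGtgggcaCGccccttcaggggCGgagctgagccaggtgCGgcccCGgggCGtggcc
Ibtk: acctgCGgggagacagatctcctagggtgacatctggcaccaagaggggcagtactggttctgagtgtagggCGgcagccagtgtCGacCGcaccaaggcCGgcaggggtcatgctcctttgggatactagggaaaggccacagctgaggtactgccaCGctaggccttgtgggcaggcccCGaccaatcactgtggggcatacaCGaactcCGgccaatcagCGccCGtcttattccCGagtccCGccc
Dop1a: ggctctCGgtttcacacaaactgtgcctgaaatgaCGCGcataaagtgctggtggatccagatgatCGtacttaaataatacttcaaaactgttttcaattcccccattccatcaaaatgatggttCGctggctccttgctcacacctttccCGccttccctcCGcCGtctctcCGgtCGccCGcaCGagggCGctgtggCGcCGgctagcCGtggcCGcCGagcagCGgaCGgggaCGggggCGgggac
Tesk1: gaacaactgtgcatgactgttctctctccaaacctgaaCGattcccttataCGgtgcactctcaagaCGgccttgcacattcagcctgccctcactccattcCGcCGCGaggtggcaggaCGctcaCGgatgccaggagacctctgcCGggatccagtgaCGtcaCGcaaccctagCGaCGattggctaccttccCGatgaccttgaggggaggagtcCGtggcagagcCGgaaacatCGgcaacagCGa
Cd72: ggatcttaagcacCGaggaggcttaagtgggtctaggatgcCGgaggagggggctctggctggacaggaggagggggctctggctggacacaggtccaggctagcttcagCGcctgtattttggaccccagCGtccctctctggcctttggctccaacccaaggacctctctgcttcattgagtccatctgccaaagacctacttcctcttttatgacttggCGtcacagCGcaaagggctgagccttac

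A promoter that met distal marked elements is shown with 1 such element from each of 3 transcription factor genes. The promoter of Cebpb, a transcription factor of myeloid cells and of acute inflammation, held 41 CpGs in its 250 bases (chr2:167688665-167688914, plus strand). The central 300 bases of the tallest replicate 1 peak in the partner bin are given on the plus strand. The partner of Cebpb (chr2:167887842-167888141) held 10 CpGs and lay 29.4 kb from the nearest start site of any gene. The partner of Maf (chr8:115233950-115234249), inside Wwox, held 5 CpGs and lay 181 kb from the nearest start site. The partner of Spi1 (chr2:91078516-91078815), which encodes PU.1, held 18 CpGs and lay 8.25 kb from the nearest start site.
Cebpb promoter: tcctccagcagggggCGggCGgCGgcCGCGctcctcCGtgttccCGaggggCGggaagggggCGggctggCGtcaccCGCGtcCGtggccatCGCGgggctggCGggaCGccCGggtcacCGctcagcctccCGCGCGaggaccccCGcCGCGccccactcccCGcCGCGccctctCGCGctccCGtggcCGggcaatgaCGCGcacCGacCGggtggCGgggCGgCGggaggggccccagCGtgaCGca
Cebpb partner: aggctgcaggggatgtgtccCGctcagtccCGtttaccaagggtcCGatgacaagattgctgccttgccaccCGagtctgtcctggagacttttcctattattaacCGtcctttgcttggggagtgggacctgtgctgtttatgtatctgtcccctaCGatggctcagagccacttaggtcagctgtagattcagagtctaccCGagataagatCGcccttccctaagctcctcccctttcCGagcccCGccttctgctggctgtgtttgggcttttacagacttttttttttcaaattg
Maf partner: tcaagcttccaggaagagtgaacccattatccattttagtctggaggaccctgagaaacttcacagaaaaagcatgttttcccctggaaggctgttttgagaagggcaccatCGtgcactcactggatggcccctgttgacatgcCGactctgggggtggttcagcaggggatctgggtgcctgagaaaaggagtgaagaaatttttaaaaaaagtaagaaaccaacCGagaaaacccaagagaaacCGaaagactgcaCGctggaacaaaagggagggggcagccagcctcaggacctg
Spi1 partner: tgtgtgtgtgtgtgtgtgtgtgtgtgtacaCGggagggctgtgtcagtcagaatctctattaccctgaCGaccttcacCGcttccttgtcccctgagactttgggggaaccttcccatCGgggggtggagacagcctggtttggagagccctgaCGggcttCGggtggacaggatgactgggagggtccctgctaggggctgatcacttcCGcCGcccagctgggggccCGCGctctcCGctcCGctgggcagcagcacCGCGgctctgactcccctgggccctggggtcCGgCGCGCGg

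Where the bins lay was compared with start sites of protein-coding transcripts in the GENCODE annotation. Both bins held a coding start site in 953 both-marked contacts (28.9%, 27.4 to 30.5%), 1 bin did in 1570 (47.7%) and neither did in 771 (23.4%). Among contacts with 1 marked bin the same shares were 1.89%, 50.5% and 47.6%. The mark and the start site are not independent, so this difference follows in part from how the contacts were chosen. With start sites of all gene types, both bins held one in 1201 both-marked contacts (36.5%).

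In 932 contacts the start sites belonged to different coding genes, and these are called promoter pairs. They joined 1672 genes in 1208 distinct gene pairs, and another 21 contacts joined start sites of the same gene. All both-marked contacts together reached 2500 coding genes. Of the 4265 distinct bins, 2293 held a coding start site (53.8%), 281 held only a start site of another gene type (6.59%), 920 lay inside a coding gene without a start site (21.6%) and 771 were intergenic (18.1%). Of those without any start site, 690 (16.2% of the 4265) lay next to a bin with a coding start site. The 4414 marked bins that met unmarked bins alone were similar. There 50.6% held a coding start site, 6.62% only another one, and 19.7% none but lay next to a coding one. The 4265 bins were 49.1% of the 8679 marked bins of the list, and the other marked bins met unmarked bins alone.

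Both-marked contacts were found on all 19 autosomes, from 94 on chromosome 12 to 259 on chromosome 11. They made up between 8.20% and 14.9% of a chromosome's contacts. Of the 1787 clusters of neighboring contacts that held one, 1621 also held a contact with 1 marked bin (90.7%), the kind that makes up most of the list. Both-marked contacts stood alone in 3.10% of cases and contacts with 1 marked bin in 4.80%. Contacts of 1 cluster are not independent, and the intervals given for shares cover counting error only.

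The distance between the starts of the bins had a median of 120 kb in both-marked contacts, with quartiles of 70 and 215 kb and a range of 10 to 955 kb. In contacts with 1 marked bin the median was 125 kb, with quartiles of 60 and 225 kb. The clearest difference was at the shortest distances: 2.88% of both-marked contacts spanned 10 to 15 kb (2.37 to 3.51%), against 9.32% of the contacts with 1 marked bin (8.96 to 9.70%). Read the other way, both-marked contacts were 4.17% of all contacts at 10 to 15 kb and between 11.1% and 14.9% in each of the 5 longer distance classes. Promoter pairs had a median distance of 125 kb, with quartiles of 75 and 205 kb.

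The strength of a contact is given as its read pairs over the number that the caller expected. Both-marked contacts had a median of 19 read pairs against a median of 5.23 expected, and contacts with 1 marked bin had medians of 16 and 3.76. The median ratio was 3.51 in both-marked contacts, with quartiles of 2.84 and 4.49 and a range of 2.00 to 16.8. It was 4.12 in contacts with 1 marked bin. The lower ratio of both-marked contacts was seen in each distance class, from 2.21 against 2.32 at 10 to 15 kb, through 3.61 against 4.31 at 100 to 195 kb, to 5.36 against 6.12 at 500 to 1000 kb. The median number of expected read pairs was higher for both-marked contacts in each class, at 22.8 against 18.8 at the shortest and 1.89 against 1.57 at the longest distances. The caller's model fits its expectation separately for pairs with both bins marked and pairs with 1, so these ratios rest on different fits, and no replicates exist to test the difference. When only contacts with 20 or more read pairs were kept, the medians were nearly the same, at 3.00 in both-marked contacts against 2.99. The median distances of these sets differed, at 70 kb in both-marked contacts against 45 kb, and the ratio rose with distance.

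**Figure D1:**
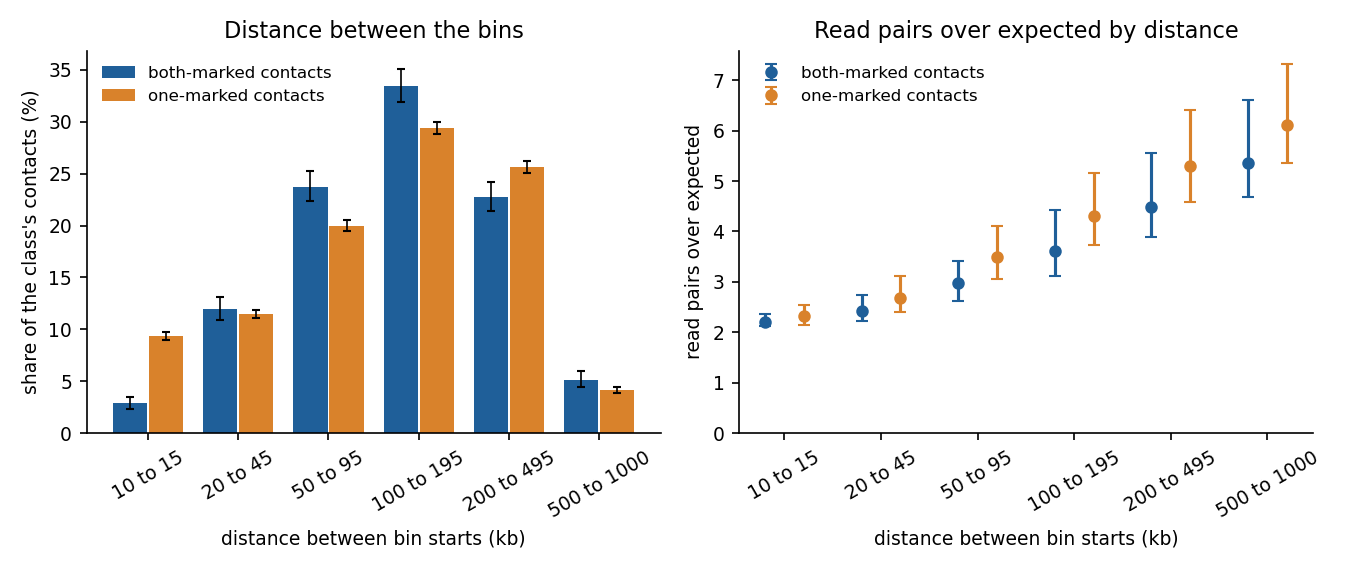
Both-marked contacts beside contacts with 1 marked bin, by distance between bin starts in kb. Left, the share of each class of contacts (%) in 6 distance classes, with 95% Wilson intervals; right, the median of read pairs over expected, with bars from the lower to the upper quartile. Both-marked contacts held a smaller share at 10 to 15 kb (2.88% against 9.32%), and the median ratio rose with distance in both classes, from 2.21 to 5.36 in both-marked contacts.

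The list is cut at limits, and the lowest number of read pairs in it was 7, the lowest ratio 2.00 and the highest false discovery rate 0.0100. At 500 to 1000 kb, where both-marked contacts had a median of 1.89 expected read pairs, the median contact held 11, and the part of these limits in the rise of the ratio with distance was not tested. By start sites, the median ratio was 3.39 in promoter pairs, 3.56 in both-marked contacts with a coding start site in 1 bin and 3.68 in those with none. The quartiles of these groups overlap widely, at 2.79 to 4.23 in promoter pairs and 2.92 to 4.74 in contacts without a coding start site.

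Peak height was read in each H3K4me3 replicate as the tallest deposited peak that touches the bin, in tags per 10 M. The deposited peak lists are not the anchor peaks behind the authors' marks, so they allow a partial check of them. Of the 4265 bins, 3572 held a peak in both replicates (83.8%), 300 held one in 1 replicate, and 393 held none, of which 385 had a peak in an adjacent bin. Both bins held peaks in both replicates in 2401 both-marked contacts (72.9%), and the heights below are from these. At the edge of the choice, the lowest height in a bin of a both-marked contact was 3.9 in replicate 1 and 4.48 in replicate 2. Conversely, 117 contacts with 1 marked bin had peaks in both bins in both replicates, in 83 bins without the mark, whose median heights were 9.35 and 8.95. The tallest of these had 2881 and 2858.3 tags per 10 M, and the fifth tallest had 14 and 14.9.

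The pair of bins in a both-marked contact was usually uneven. In replicate 1 the lower bin had a median height of 52.2 and the higher bin 241.5, and in replicate 2 these were 54.5 and 250.6. The median fold between the bins was 2.72 in replicate 1 and 2.79 in replicate 2, while the median fold between replicates of the same bin was 1.14 (SD of the log2 ratio 0.43 over 3572 bins). The same bin was the taller one in both replicates in 2189 contacts (91.2%), and it was over 2-fold taller in both replicates in 1309 (54.5%) and over 10-fold taller in 412 (17.2%). Replicates of a bin lay within 2-fold of each other in 95.7% of bins, so the unevenness of most contacts was larger than the spread between the ChIP-seq libraries. For comparison, all autosomal bins with a peak in both replicates were paired at 10 to 1000 kb. The lower bin had a mean height under 50 in 144573 of these 271730 possible pairs. It did in 1289 of the 2518 that were contacts, so a low bin was about as common among possible pairs. The fold between bins and the height classes below were not counted over possible pairs.

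Start sites tracked this unevenness. Bins with a coding start site had median heights of 227.5 and 237.9 in the replicates (2213 bins), and bins without one had 35.1 and 35.1 (1359 bins). In promoter pairs (876 with peaks throughout) the lower bin had median heights of 173.7 and 179 and the higher bin 275.4 and 281.2, so promoter pairs were the more even ones.

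Sorted by height, 842 contacts (35.1%) had at least 100 tags per 10 M in both bins in both replicates, and 76.6% of these held a coding start site in both bins. Another 941 contacts (39.2%) joined a bin under 50 in both replicates with a bin of 50 or more in either replicate. Of these, 12.1% held a coding start site in both bins. In 179 contacts (7.46%) both bins were under 50, and 61.5% of these held no coding start site at all. The remaining 439 contacts (18.3%) had heights between these classes. The median ratio was 3.38 where both bins had at least 100, 3.64 where only the lower bin was under 50, 3.76 where both were and 3.55 in the rest.

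**Figure D2:**
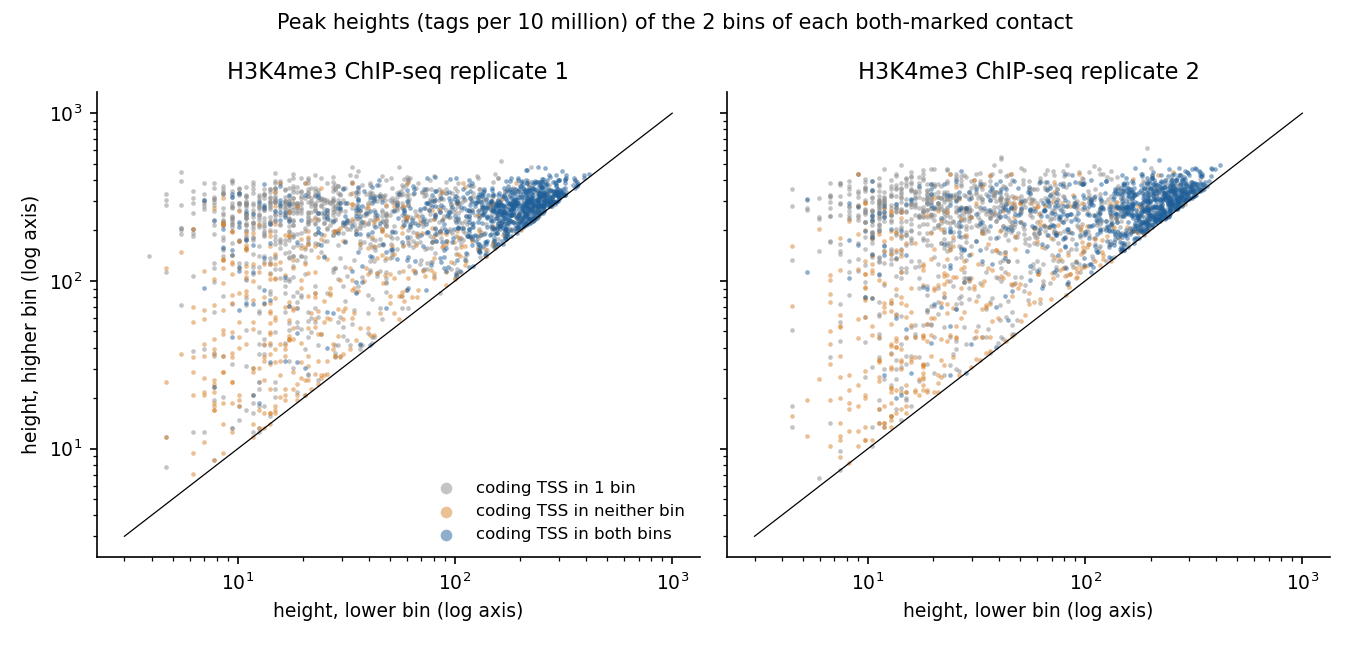
Peak heights in tags per 10 M, on log axes, of the lower bin (horizontal) and the higher bin (vertical) of each of the 2401 both-marked contacts with peaks in both bins and both replicates, 1 panel per ChIP-seq replicate; colors give the number of bins with a coding start site. Promoter pairs gather at the upper right, with medians of 173.7 and 275.4 in replicate 1, and contacts with fewer start sites spread to low heights of the lower bin.

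How many possible pairs of marked bins were contacts was counted over all autosomal bins with a peak in both replicates. Of 271730 such pairs 10 to 1000 kb apart, 2518 were in the list (0.927%). The share was 2.04% at 10 to 15 kb, 2.43% at 20 to 45 kb, 3.34% at 50 to 95 kb, 2.53% at 100 to 195 kb, 0.701% at 200 to 495 kb and 0.105% at 500 to 1000 kb. A pair outside the list was not called at this depth and is not shown to lack contact, and fewer expected read pairs at long distances leave less room for a call.

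Pairs of promoters were not the pairs most often called. With a coding start site in both bins 0.734% of possible pairs were in the list (0.688 to 0.784%), with 1 such bin 1.02% (0.959 to 1.07%) and with none 1.32% (1.21 to 1.45%). At 10 to 15 kb these shares were 1.23%, 2.34% and 3.14%, and at 100 to 195 kb they were 2.20%, 2.65% and 3.36%. The height of the lower bin separated the shares in 2 of the 6 distance classes, in opposite directions. At 10 to 15 kb the share fell from 2.74% of pairs whose lower bin was under 50 (2.13 to 3.53%) to 0.686% where it was 150 or more (0.315 to 1.49%, 6 contacts). At 100 to 195 kb it was 2.35% under 50 (2.14 to 2.59%) and 3.11% at 150 or more (2.75 to 3.51%). In the other 4 classes the intervals of these height classes overlapped. Bins in several pairs are counted more than once here.

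**Figure D3:**
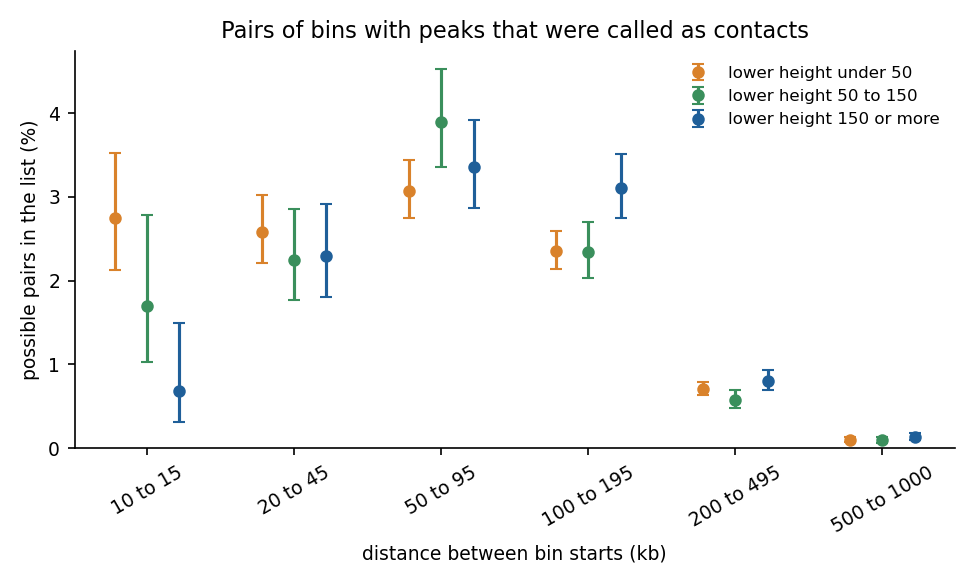
Share of possible pairs of bins with peaks in both replicates that were in the list of contacts (%), by distance between bin starts in kb and by the height of the lower bin, with 95% Wilson intervals. The share was highest at 50 to 95 kb (3.34% of all possible pairs) and lowest at 500 to 1000 kb (0.105%), and at 10 to 15 kb it was 2.74% for lower bins under 50 against 0.686% for those of 150 or more.

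The promoter pairs with the highest ratios at 20 or more read pairs are described by what the genes do. Mertk encodes a receptor tyrosine kinase with which macrophages recognise and engulf dying cells, and Tmem87b encodes a membrane protein of the Golgi. Their bins, 120 kb apart on chromosome 2, shared 96 read pairs against 8.91 expected, so the ratio was 10.8 (exact Poisson interval for the read pairs 8.72 to 13.2) at a false discovery rate of 4.14e-60. The Mertk bin had heights of 328 and 349.1 in the replicates and the Tmem87b bin 295.3 and 312.5. Both bins thus held tall peaks that differed little between replicates.

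Psma1, a subunit of the proteasome core, and Pde3b, a phosphodiesterase of cyclic nucleotides, were joined over 140 kb on chromosome 7 by 119 read pairs against 13.4 expected, a ratio of 8.86 (7.34 to 10.6). Heights were 288.3 and 350.6 in the Psma1 bin and 287.5 and 355.1 in the Pde3b bin. This and the Mertk pair were the only contacts among the 10 highest ratios that were also among the 5 promoter pairs with the most read pairs.

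Others of the 10 pairs had longer spans or lower heights. Ddx20, a component of the SMN complex that assembles spliceosomal particles, met Wdr77, a partner of the arginine methyltransferase that modifies the proteins of those particles, over 270 kb on chromosome 3 (43 read pairs, ratio 11.0, 7.93 to 14.8). The Ddx20 bin had heights of 244.6 and 296.1 and the Wdr77 bin 314.7 and 329.7. Ddx20 also met the bin of Atp5f1, a subunit of ATP synthase, 275 kb away (ratio 8.87), where neither replicate had a peak. That bin adjoins the Wdr77 bin, so these contacts may not be separate. U2surp, a splicing factor, met Atr, a kinase of the DNA damage response, over 345 kb on chromosome 9 with 20 read pairs against 2.28 expected (ratio 8.78). Poc1a, a centriole protein, met the ribosomal protein gene Rpl29 over 145 kb on chromosome 9 (ratio 9.21), with heights of 130.9 and 147.7 against 149.6 and 169.3.

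The longest promoter pair with at least 20 read pairs was also the one with the highest ratio. Ibtk, an inhibitor of Bruton's tyrosine kinase, met Dop1a over 720 kb on chromosome 9 with 20 read pairs against 1.81 expected, a ratio of 11.1 (6.76 to 17.1). The Ibtk bin had heights of 298.4 and 379.7 and the Dop1a bin 285.9 and 282.7. Next in length came the bin of Sept10 and Sowahc with the cochaperone gene Dnajb12 (655 kb, 21 read pairs, ratio 9.03) and Fgfbp3 with the mitotic kinesin Kif11 (460 kb, 27 read pairs, ratio 8.91). The fifth longest, Rnf150 with the bin of Gm10645 and Tbc1d9 (305 kb), had a ratio of 3.95 (2.44 to 6.04), lower than the other 4.

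Of the 10 strongest pairs, 1 with peaks in both bins was uneven. Col14a1, which encodes a fibrillar-associated collagen, had a bin with heights of 15.6 and 26.1, while the shared bin of the mitochondrial ribosomal protein gene Mrpl13 and of Mtbp, 250 kb away on chromosome 15, had 229.8 and 194.7. Their 41 read pairs gave a ratio of 9.11 (6.54 to 12.4). Since Mrpl13 and Mtbp share the bin, the contact cannot be given to either of them.

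Of the 5 promoter pairs with the most read pairs, 3 spanned 10 kb and had low ratios. Tesk1, a kinase that acts on cofilin, and Cd72, a transmembrane receptor best known from B cells, lay 10 kb apart on chromosome 4 and shared 122 read pairs against 48.9 expected (ratio 2.49, 2.07 to 2.98). The Tesk1 bin had heights of 301.5 and 305.1, and the Cd72 bin 15.6 and 15.7. The CpG counts of the stretches shown above followed the heights in this pair, with 18 for Tesk1 and 6 for Cd72, but not in the other 2 pairs shown, where Mertk held 7 against 16 for Tmem87b and Ibtk 13 against 22 for Dop1a although the Mertk and Ibtk bins were the taller ones in both replicates. The other two pairs at 10 kb were Pcdhgc3 with Pcdhgc4 and Pcdhgc5, alternative first exons of the gamma protocadherin cluster (110 read pairs, ratio 2.07), and the bin of Ppp1ca and Tbc1d10c with Rad9a (96 read pairs, ratio 2.58). Just inside the list's limit were Vamp5 with Vamp8, genes of vesicle fusion (67 read pairs against 33.4 expected, ratio 2.01), and Clptm1 with Apoe (38 against 18.8, ratio 2.02).

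Promoter pairs of genes with the same symbol stem numbered 16 of 932 (1.72%). Among possible pairs of coding start site bins with peaks, 1.42% shared a stem, and 0.864% of these were called (0.524 to 1.42%) against 0.718% of the others (0.672 to 0.768%), so the intervals overlap. The highest ratios among the 16 were those of Zmym5 with Zmym2, genes of zinc finger proteins (5.19, 3.12 to 8.10), the interferon-induced GTPase genes Gbp5 and Gbp2 (4.20, 2.63 to 6.37), the chemokine gene Ccl9 with the shared bin of the chemokine gene Ccl3 and of Rpl9-ps1 (3.83, 2.43 to 5.75), and Zfp868 with the shared bin of Zfp866 and Atp13a1 (3.75, 2.10 to 6.18). The fifth, Slc39a1 with Slc27a3 (3.57), joins transporters of different families that share a symbol stem alone. Of contacts between start sites of the same gene, the strongest was at Oxr1, a gene of oxidation resistance, over 340 kb (17 read pairs, ratio 5.58), followed by a bin pair at Samd4b (4.61) and by Tiam1 (3.71). The Samd4b bins also hold Gmfg and Pak4. Contacts of such shared bins cannot be given to 1 of their genes.

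The strands of paired promoters were compared with those of all possible pairs. In 331 promoter pairs (35.5%) all genes lay on the same strand, in 148 (15.9%) transcription ran toward each other, in 227 (24.4%) it ran apart, and in 226 (24.2%) a bin held genes of both strands. Of all possible pairs of coding start site bins with peaks, 0.621% with the same strand were called (0.555 to 0.695%), 0.594% of those facing each other (0.504 to 0.701%), 0.896% of those facing apart (0.785 to 1.02%) and 0.857% of those with mixed strands (0.751 to 0.977%). The median ratio was 3.35 for the same strand and for facing apart, and 3.44 for facing each other.

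Paired promoters were mostly not neighbors. No coding start site lay between the bins in 238 pairs (25.5%), and no marked one in 281 (30.2%). Between 1 and 3 marked coding genes were passed over in 467 pairs (50.1%), and more than 3 in 184 (19.7%). The most were 25, between Trim27 and the bin of Hist1h2ah and Hist1h2bk in the large histone gene cluster of chromosome 13, which lay 860 kb apart with a ratio of 4.48. The median distance was 75 kb in pairs with no coding start site between and 147.5 kb in pairs with 1 or more. Genes passed over were not counted over possible pairs at the same distances, so these counts describe the pairs alone.

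Both-marked contacts were then joined into groups. Adjacent marked bins were taken as 1 element, which gave 3415 elements, 2221 of them a single bin, linked by 2392 distinct pairs. These fell into 1177 groups, of which 686 were isolated pairs (58.3%), 408 held 3 to 5 elements and 83 held 6 or more. The median bin took part in 1 both-marked contact and the busiest in 11.

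The largest group held 15 elements, 34 contacts and 20 coding genes between 79850001 and 80265000 on chromosome 10 (GRCm38), with a median ratio of 3.24 over 838 read pairs. It included the splicing repressor Ptbp1, the kinase Stk11, the lipid peroxide reductase Gpx4, the cold-inducible RNA binding protein Cirbp, the mediator subunit Med16 and Cnn2. The second, with 13 elements and 23 contacts on chromosome 7 between 19145001 and 19630000, held 13 coding genes, among them the NF-kB subunit Relb, the AP-1 subunit Fosb and the repair gene Ercc1 (median ratio 3.11). A group of 11 elements and 25 contacts on chromosome 13 between 21160001 and 22055000 joined 13 histone genes with Trim27, Zkscan3, Zkscan8 and Zscan26 (median ratio 4.11). Tied with it at 11 elements was a group on chromosome 4 between 133575001 and 133915000, with 32 contacts, 623 read pairs and 5 coding genes, among them the chromatin remodeler Arid1a and the kinase Rps6ka1 (median ratio 3.78). Histone genes of this cluster are near copies of each other, so reads there may be hard to place.

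The busiest bins with a coding start site divided by what they met. The bin of Msrb2, a methionine sulfoxide reductase, took part in 8 both-marked contacts of 95 to 760 kb, and 3 coding genes were among its partners. Atp5d, an ATP synthase subunit within the largest group, had 7 contacts that reached 6 coding genes, and Ddx20 had 7 that reached 5. By contrast, the 7 contacts of Ivns1abp, named for the influenza protein it binds, reached no coding start site, and nor did the 7 of Dusp6, the phosphatase that inactivates ERK kinases. The Ivns1abp bin had heights of 357.6 and 331.2 and the Dusp6 bin 329.5 and 302.8, so both were tall promoters. Hlx (2 coding partners), Tesk1 (6) and Tbc1d14 (4) also had 7 contacts each, so that 7 bins shared second place.

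Which genes took part was described for 15 lists of genes. Over all 12291 autosomal coding genes with H3K4me3 in both replicates, 19.8% had a both-marked contact and 13.2% were in a promoter pair. Genes in a shared bin share its contacts, and the lists were chosen with earlier results of these data known, so the counts are descriptions. The list farthest above the background among those with over 10 marked genes was that of myeloid transcription factors, of which 23 of 48 marked genes had a both-marked contact (47.9%, 34.5 to 61.7%). For homologs of Alzheimer's disease risk genes it was 10 of 28 (35.7%, 20.7 to 54.2%), and for inflammatory response genes 8 of 23 (34.8%, 18.8 to 55.1%). For TGF-beta and SMAD signaling it was 11 of 37 (29.7%), and for homeostatic microglia genes 6 of 22 (27.3%). These lists also stood above the background in contacts that were not both-marked. Such contacts were held by 34 of 48 myeloid factors, 19 of 28 risk gene homologs and 10 of 23 inflammatory genes. They were held by 22 of 37 TGF-beta and 15 of 22 homeostatic genes, against 4056 of all 12291. Whether the excess is particular to both-marked contacts was not tested.

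Of the remaining lists, a both-marked contact was held by 9 of 34 proteasome subunits (26.5%), 5 of 21 interferon response genes (23.8%), 9 of 40 cytosolic ribosomal proteins (22.5%) and 6 of 28 lysosome genes (21.4%). The intervals of the myeloid transcription factors and of the risk gene homologs lay above 19.8%, and those of the other 13 lists held it. The risk gene count rests on the authors' marks: it was 7 with deposited peaks of both replicates as the mark, 7 without replicate 2, 9 without replicate 1, 6 with at least 50% of the peak in the bin and 6 at a false discovery rate limit of 0.0001. The myeloid factor count was 24, 25, 28, 24 and 15 under the same settings. The risk gene list shares Spi1 and Mef2c with the myeloid factors. Of the markers of other cells, 1 of 6 marked neuron genes, 2 of 7 astrocyte genes and 3 of 6 oligodendrocyte genes had a both-marked contact, and 0 of 3 endothelial and mural, 0 of 2 border macrophage and 0 of 2 other leukocyte genes did. No value here shows from which cells a contact comes, and the part of other cells in the contacts was not tested.

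**Figure D4:**
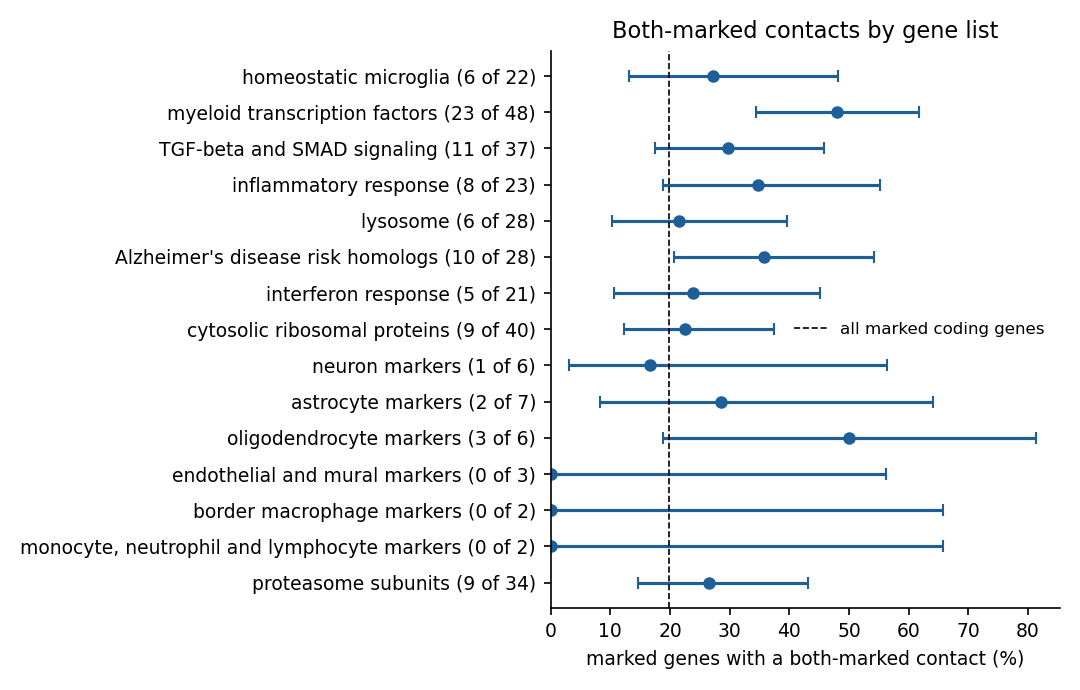
Share of the marked genes of each list that had a both-marked contact (%), with 95% Wilson intervals; the label of each list gives the genes with a contact of the marked genes, and the dashed line marks all marked autosomal coding genes (19.8%). Myeloid transcription factors stood at 47.9%, with an interval of 34.5 to 61.7% that lies above the line.

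The lists differed in what their genes met. The 23 myeloid transcription factor genes took part in 47 both-marked contacts, and the partner bin was intergenic in 23, inside a coding gene in 8, at a start site of another gene type in 5 and at a coding start site in 11. The median height was 215.8 and 214.1 in the factor's own bin and 24.9 and 26.9 in the partner bin. In the list of TGF-beta and SMAD genes 5 of 26 contacts reached a coding start site, with heights of 237.6 and 246.2 against 22.95 and 26.1. Inflammatory response genes reached one in 7 of 19 contacts, homeostatic microglia genes in 5 of 7, interferon response genes in 4 of 5, risk gene homologs in 6 of 20, lysosome genes in 8 of 10, ribosomal protein genes in 11 of 15 and proteasome genes in 10 of 15. In the homeostatic list the contact of P2ry13 with P2ry12 is counted from each gene, so it enters both of these numbers more than once. Over all 2523 both-marked contacts with a coding start site, the other bin held one too in 37.8% (35.9 to 39.7%), with each contact counted once. The lists count contacts from a gene's own bin, so a promoter pair can be entered from either end. Counted in that way the share over all contacts would be higher, so the list shares cannot be set against 37.8%. In the last 3 lists the partner bins had median heights of 168.65 and 163, 200.2 and 168.6, and 162.8 and 161.9. The difference between the lists was not tested, since the contacts of 1 gene are not independent.

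Among the myeloid factors, Cebpb had the strongest contact. It is named here after its values were seen. Its bin, with heights of 140.2 and 169.3, met the intergenic bin shown above 200 kb away, with heights of 24.9 and 23.1, through 46 read pairs against 3.21 expected, a ratio of 14.3 (10.5 to 19.1). No contact with a coding start site in either bin had a higher ratio. It had 2 further both-marked contacts at 115 and 240 kb, with ratios of 3.89 and 4.57.

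Maf, which encodes a macrophage transcription factor of the AP-1 superfamily, had 4 contacts from a bin with heights of 263.3 and 255.8. Within the neighboring gene Wwox it met bins at 475 kb (33 read pairs, ratio 9.55), 545 kb (29, ratio 8.82) and 550 kb (27, ratio 9.24). The partner at 475 kb had heights of 25.7 and 44, the one at 545 kb had 84.1 and 114.9, and the one at 550 kb, next to it, had no peak. The fourth contact, with an intergenic bin at 235 kb, had a ratio of 4.61 and partner heights of 10.1 and 17.9.

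Klf3, a zinc finger repressor, had 4 contacts with intergenic bins 295 to 435 kb away. A start site bin with low heights, 13.2 and 10.4, gave 3 of them, and the strongest of these spanned 325 kb with 22 read pairs and a ratio of 9.33. The tall Klf3 bin, with heights of 342 and 356.5, had 1 contact, at a ratio of 4.01. Irf2, an interferon regulatory factor, had 4 contacts with intergenic bins, 3 of them between 195 and 205 kb with ratios of 4.54 to 5.56.

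Spi1, whose product PU.1 is required for macrophages and microglia, had 3 contacts with adjacent bins. The strongest reached the intergenic bin shown above at 20 kb, with 72 read pairs, a ratio of 4.47 and partner heights of 28.8 and 31.3. The next reached the promoter of Slc39a13 at 25 kb (57 read pairs, ratio 3.07; heights 169.8 and 226.8), and the third a bin without a peak at 30 kb (53, ratio 2.83). Zeb2, a repressor also listed with the SMAD genes, met 3 adjacent intergenic bins at 125 to 135 kb with ratios of 3.69 to 4.86. Runx1 met its own other promoter 130 kb away, with 24 read pairs and a ratio of 3.14, and heights of 140.2 and 170.8 against 173.7 and 144.7.

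**Figure D5:**
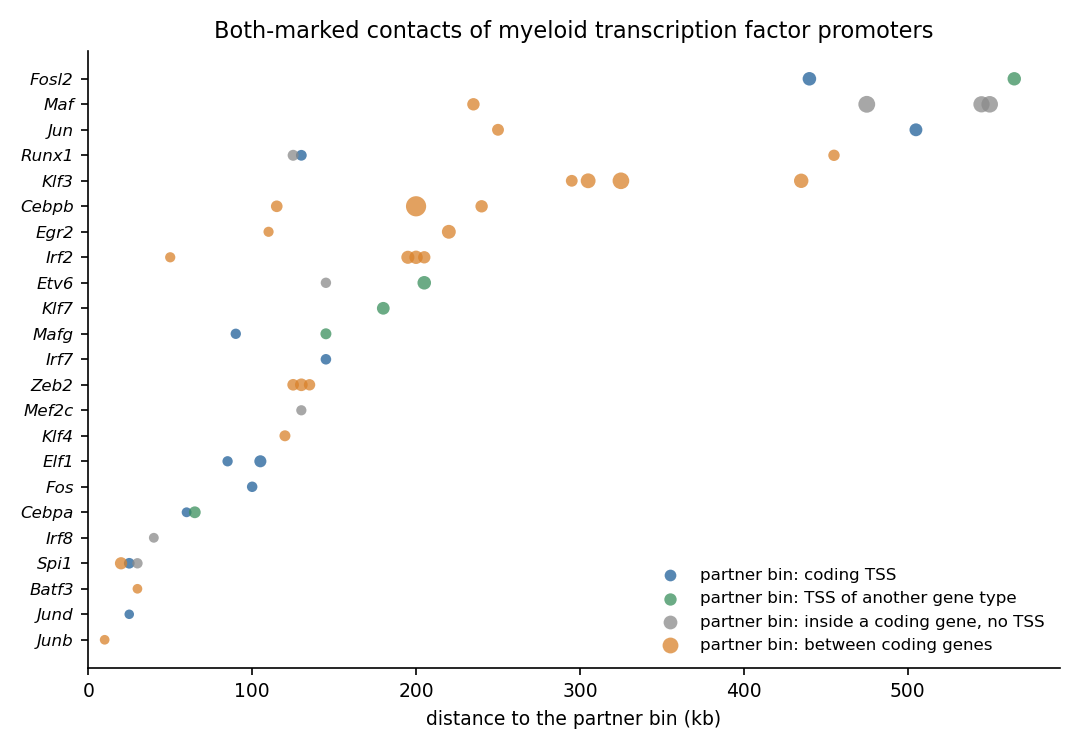
Both-marked contacts of myeloid transcription factor genes, by distance to the partner bin in kb (horizontal) and by gene (vertical); the area of a point grows with read pairs over expected and its color gives where the partner bin lies. Of the 47 contacts, 23 reached intergenic bins and 11 coding start sites; the Maf contacts at 475 to 550 kb and the Cebpb contact at 200 kb (ratio 14.3) had some of the highest ratios.

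In the TGF-beta list, the inhibitory SMAD gene Smad7 met 4 bins within Ctif 100 to 135 kb away, with 36 to 51 read pairs and ratios of 2.93 to 7.57. Its bin had heights of 352.9 and 339.4, and the partners lay between 11.9 and 38.8 in both replicates. Pmepa1, another inhibitor of TGF-beta signaling, met 3 intergenic bins, the strongest at 260 kb (27 read pairs, ratio 7.48; partner heights 24.9 and 20.1). Tgif1, a repressor that acts with SMAD proteins, had 5 contacts with ratios of 2.52 to 3.73, and 1 of them reached the promoter of Myl12b. The strongest promoter pair of the list joined Ldlrad4 with the bin of Fam210a and Rnmt over 370 kb (13 read pairs, ratio 4.10). Sall1, from the homeostatic list, had 1 both-marked contact, with an intergenic bin 525 kb away that had heights of 17.1 and 13.4 (28 read pairs, ratio 10.5).

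In the inflammatory list, Tnfaip3, the ubiquitin-editing inhibitor of NF-kB, met intergenic bins alone, in 4 contacts of 45 to 175 kb with ratios of 2.53 to 6.62. The bin behind 3 of them had heights of 408.2 and 424.4, and the fourth came from the bin next to it, which had no peak. Nfkbia, which encodes an inhibitor that holds NF-kB in the cytoplasm, met the promoter of the proteasome gene Psma6 at 95 kb (32 read pairs, ratio 3.92) and the shared bin of Ppp2r3c and 1110008L16Rik at 190 kb (16, ratio 3.57), and both of these partners were tall, at 212.6 or more in each replicate. Its other 2 contacts reached bins inside Psma6 at 105 kb (ratio 4.65, the highest of the 4) and 100 kb (ratio 3.83), with no peak in replicate 1 and 14.9 in replicate 2. Nfkb2 had 4 contacts with Elovl3, Pitx3 and Gbf1 bins at 155 to 170 kb, with ratios of 2.74 to 3.87.

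Among homeostatic and lysosomal genes, the purinergic receptor genes P2ry13 and P2ry12, which neighbor each other, were joined over 50 kb with 24 read pairs against 10.6 expected (ratio 2.26, 1.45 to 3.36), with heights of 133.2 and 148.4 against 102.1 and 154.4. This was the only contact with both ends in the homeostatic list. Cx3cr1, Csf1r and Olfml3 had no both-marked contact, although their heights lay between 132.4 and 309.6. Grn, which encodes the lysosomal protein progranulin, had 4 contacts at 110 to 135 kb with ratios of 3.47 to 4.32, among them the promoters of Ubtf (42 read pairs) and Atxn7l3 (27). The protease gene Ctsz met Gnas over 110 kb (17 read pairs, ratio 5.47), and the lipase gene Lipa met the bin of Ifit1 over 115 kb (14, ratio 3.82).

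Of the risk gene homologs, Cnn2 had the most contacts, 5 at 85 to 155 kb within the large group on chromosome 10, with Stk11 the strongest partner at a coding start site (23 read pairs, ratio 5.31). Its bin had heights of 120 and 87.3. The Apoe contact named above had low heights, 14 and 14.9 in the Apoe bin and no peak and 10.4 in the Clptm1 bin. Rpl8, a protein of the large ribosomal subunit, had 5 contacts of 180 to 365 kb, all but 1 of them with coding start sites, with 11 to 23 read pairs and ratios of 2.89 to 4.69. Rps23 was joined to Zcchc9 over 885 kb by 12 read pairs against 1.61 expected (ratio 7.45, 3.85 to 13). Among the oligodendrocyte genes, Pdgfra, the receptor that marks oligodendrocyte precursors, met Fip1l1 over 620 kb with 11 read pairs (ratio 6.60, 3.29 to 11.8).

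Contacts outside promoter pairs held the highest ratios of the set, and are named here after their values were seen. The highest joined intergenic bins on chromosome 8 that start at 126495001 and 126920001, 425 kb apart, with 31 read pairs against 1.85 expected (ratio 16.8, 11.4 to 23.8). The first bin had heights of 24.2 and 9.7, and the second 13.2 and no peak. Next came the start site of the noncoding gene Gm11638 with a bin inside Tanc2, a scaffold protein gene, 230 kb apart (94 read pairs against 5.70, ratio 16.5), with heights of 111.4 and 165.6 against 360.7 and 402.8. The Tanc2 bin lies 0.01 kb from a coding start site of Tanc2, which falls just outside the edge of the bin. Rnf150, a RING finger gene, met the start site of Gm45449 at 225 kb with 76 read pairs (ratio 14.1), at heights of 295.3 and 312.5 against 7.79 and 16.4. The ratio was thus high in contacts of tall with tall, tall with low, and low with low bins.

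The sequence of promoters was described from 300 bases around RefSeq starts, 250 before and 50 after. A RefSeq promoter that starts in the bin was found for 1258 of the 1672 genes in promoter pairs. Over the 1465 promoters in bins of promoter pairs the median was 22 CpGs, the same as over 9942 promoters in other marked bins, against 4 over 7663 promoters in bins without a peak in both replicates and 14 over all 19070. The letters GGGCGG, the core bound by SP and KLF factors, were present on either strand in 68.3% of the paired, 67.5% of the other marked and 48.4% of all promoters. The ETS letters CCGGAAG were in 20.5% (18.5 to 22.6%), 18.2% (17.4 to 19.0%) and 12.1%, the NF-Y letters CCAAT in 37.6%, 37.1% and 37.4%, and the TATA box letters TATAAA in 6.08%, 5.92% and 12.1%. Promoters in pairs thus differed little in these features from other marked promoters.

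Within promoter pairs the features went with height. Promoters in bins with a mean height of at least 100 over the replicates (1260) had a median of 23 CpGs, GGGCGG in 71.2% and CCGGAAG in 23.0%. Those in bins with a mean under 50 (94) had a median of 9 CpGs, GGGCGG in 37.2% (28.1 to 47.3%) and CCGGAAG in 2.13% (0.585 to 7.43%). Cd72, with its 6 CpGs and heights of 15.6 and 15.7, is of the second kind. GGGCGG itself holds a CpG, as does CCGGAAG, so these counts overlap. A match is a description of the letters and not a bound site.

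Peak centers told the same of distal elements. Of the peaks in bins of both-marked contacts whose center lies in the bin, 2375 (67.6%) lay within 1 kb of a start site of any gene and had a median of 27 CpGs in their central 300 bases, and 1139 (32.4%) lay farther away and had 9. The distal peaks had median heights of 28 and 29.8. In marked bins without a both-marked contact, 67.2% of peaks lay within 1 kb of a start site and 32.8% farther away. In both-marked contacts the letters GAGGAAG, which PU.1 binds, were in 17.2% of the distal and 11.3% of the start site peaks. In peaks of marked bins without a both-marked contact these shares were 18.6% and 12.2%. In peaks of bins that were not a marked bin of any contact they were 19.6% and 12.9%, so this feature was not higher in both-marked contacts.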

How the data were processed

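H3K4me3 ChIP-seq (2 libraries) and PLAC-seq (2 libraries) of sorted wild-type microglia were used, and groups follow assay and genotype in the labels. The submitters' processing notes name Bowtie2, HOMER and the mm10 build, with no versions. The authors called contacts between 5 kb bins with MAPS on both libraries together, with H3K4me3 peaks from the ENCODE pipeline as anchors. The deposited read pair counts are whole numbers, the deposited expected value comes from the caller's regression, and the deposited false discovery rates are the caller's adjusted p-values, 1 for each pair of bins. Sequencing depth of the PLAC-seq libraries is not known here. The authors deposited a HOMER peak list for each ChIP-seq library, with tag counts and with the signal in tags per 10 M, called the height. Depth was 12.8 and 13.4 M tags. The deposited lists are not the anchor peaks, and the input signal in them was not used.

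From these files, distances, ratios, heights (the tallest peak that overlaps the bin by at least 1 bp) and start sites in each bin were computed with Python 3.11.15, pandas 2.3.3, numpy 2.4.6, scipy 1.17.1, networkx 3.6.1 and matplotlib 3.10.9. Start sites came from GENCODE M21 basic on GRCm38, the same assembly as mm10, and sequences from RefSeq GRCm38.p6. All 31396 autosomal RefSeq promoters matched the genome letter for letter. A gene counted as marked with a peak within 1 kb of a start site in both replicates. Shares carry 95% Wilson intervals and read pairs exact Poisson intervals, both for counting error only. No test between groups was made, since the contacts have no replicates. The scripts were tested on simulated bins and contacts, with 11 of 11 checks recovered.

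Named promoter pairs were the 10 with the highest ratios at 20 or more read pairs, the 5 with the most read pairs and the 5 longest at 20 or more read pairs. Also named were the 5 bins with coding start sites in most both-marked contacts (more where tied), the 3 largest groups (also the one tied in size), the 5 highest ratios within a family and the 3 within a gene, and from each list up to 3 genes with the most both-marked contacts and its strongest promoter pair. The contacts and the 15 gene lists were chosen with earlier results of these data known. Alternatives changed which bins count as marked, the limits on contacts, the use of 1 contact per cluster, the definition of a start site and the height of a bin, and left out each ChIP-seq replicate. For 1 gene of the marker list, the values are not reported here.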

Additional observations from a re-analysis of the deposited data

How the results depend on the processing

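The share of both-marked contacts with a coding start site in both bins, 28.9% by the authors' marks, was 35.7% with deposited peaks of both replicates as the mark, 25.7% with a peak in either replicate, 36.7% with at least 50% of the peak in the bin, 64.0% with heights of 50 or more, 35.6% with 1 contact per cluster, 39.7% with start sites up to 1 kb outside the bin and 36.5% with all gene types. The number of contacts (3294) was 1183 with heights of 50 or more, 1347 with the limit on the false discovery rate at 0.0001, 1593 with 20 or more read pairs and 736 with 1 per cluster. In the order height of 50 or more, false discovery rate, 20 read pairs and 1 per cluster, the share of possible pairs called (0.927%) was 0.984%, 0.393%, 0.458% and 0.227%, and the listed genes with a both-marked contact (89) were 46, 50, 57 and 27.

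The median distance of both-marked contacts (120 kb) was 115 kb with a peak in either replicate and 70 kb with 20 or more read pairs, and that of contacts with 1 marked bin (125 kb) was 45 kb with 20 or more read pairs and 110 kb with 1 per cluster. The median ratio of both-marked contacts (3.51) was 3.63 with a peak in either replicate, 3.40 with heights of 50 or more, 4.34 at the stricter false discovery rate, 3.00 with 20 or more read pairs and 4.01 with 1 per cluster. That of contacts with 1 marked bin (4.12) was 4.08 with peaks of both replicates, 4.07 with at least 50% of the peak in the bin, 3.96 with heights of 50 or more, and 5.10, 2.99 and 4.47 under the last 3 of these settings in the same order. The ratio was lower in both-marked contacts in 8 of the 9 settings that change it, all but the limit of 20 read pairs. The height of the lower bin, 53.4 as the mean of both replicates, was 56.6 at the stricter false discovery rate, 63.2 with 20 or more read pairs, 79.6 with 1 per cluster and 58.7 with the sum of all peaks.

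Without replicate 1 or 2 of the ChIP-seq as the mark, the count was 3100 to 3120, the share of coding start sites in both bins 29.6 to 30.3%, the median distance 115 to 120 kb, the median ratio 3.57 to 3.61 and the height of the lower bin 44.4 to 46.2. For single gene lists, 86 values stayed within 1.5 times of the main count and 49 did not. The cause of these shifts was not tested beyond the fewer contacts that stricter limits leave. Read pairs limit the contacts that can be called at long distances. No paired analysis was possible because the results come from no test between groups.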
